A study of Mus musculus with 4 samples.

Results

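The genes described here encode the machinery that brings proteins into mitochondria and folds, trims and degrades them there. They were taken from the deposited table by gene symbol: every gene named Tomm or Timm followed by a number, plus 14 named genes of the import motor, the sorting and assembly machinery, the processing peptidase, the matrix chaperonin and the matrix proteases. The rule found 38 of 16442 genes and used no measured value. One of them, Tomm6os, is annotated as a long non-coding RNA on the strand opposite Tomm6 and encodes no import protein. The libraries came from leukaemia stem cells, which sustain a leukaemia and were taken here from bone marrow, of C57BL/6 mice labelled Rreb1-KO or WT, with 2 libraries in each group. For KO replicate 2 the genotype label says Rreb2-KO, and this library was grouped by its title. The labels call the replicates biological but do not state the leukaemia model, the deleted part of Rreb1, the age of the mice or the animals behind each library, and p-values therefore measure a spread that may be technical. Lysates were digested with micrococcal nuclease, the RNA fragments shielded by ribosomes (footprints) were sequenced, and undigested lysate gave the input RNA.

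Nearly all mitochondrial proteins are made on cytosolic ribosomes and are imported afterwards. They cross the outer membrane through the TOM complex. From there, small Tim chaperones escort hydrophobic proteins across the intermembrane space, the SAM complex inserts barrel proteins into the outer membrane, the TIM22 complex inserts carriers into the inner membrane, and the TIM23 complex with its Hsp70 motor passes presequence proteins into the matrix. In the matrix the processing peptidase removes the presequence, the Hsp60 and Hsp10 chaperonin folds the product, and the Lon and ClpP proteases remove damaged proteins.

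The KO-labelled libraries were the shallower ones, with 364087 and 274183 assigned footprint reads in KO replicates 1 and 2, against 878068 and 656249 in WT replicates 1 and 2. Together the import genes held 0.168% (exact 95% interval 0.155 to 0.182) and 0.202% (0.185 to 0.219) of these reads in KO, against 0.211% (0.202 to 0.221) and 0.222% (0.211 to 0.234) in WT, intervals that cover counting error only. Without Hspa9 the shares were 0.136% and 0.164% in KO and 0.153% and 0.19% in WT, and the groups overlapped. Rreb1 itself did not check the labels: its footprints were 12.9 and 8.19 RPKM (reads scaled to gene length and library depth) in KO and 14.1 and 12.8 RPKM in WT, and its RNA was higher in KO, at 6.1 and 6.93 RPKM against 3.33 and 3.25 RPKM in WT (log2 difference 0.81 ± 0.09, SE, limma adjusted p = 0.000283). The libraries are therefore called KO-labelled, and KO below stands for that label. RNA of all 9 stem and progenitor markers was present in the 4 libraries, and 4 of them were higher (Kit, Cd34, Flt3 and Myb) and 1 lower (Mpo) in KO. Cd34 was at 50.5 and 49.8 RPKM in KO and 4.41 and 4.71 RPKM in WT, Flt3 at 19.5 and 17.7 RPKM in KO and 2.54 and 2.99 RPKM in WT, and Kit at 7.36 and 7.15 RPKM in KO and 1.97 and 2.32 RPKM in WT. Their sum, 9345 and 8272 RPKM in KO and 10949 and 10721 RPKM in WT, was nearly all Elane and Ctsg and did not follow these 3 genes. Markers of other cell types moved with the groups. The 8 macrophage and monocyte genes (3 higher, 5 lower) summed to 1227 and 1110 RPKM in KO and 5911 and 5925 RPKM in WT, and the 8 neutrophil genes (7 lower) to 2885 and 3479 RPKM in KO and 8600 and 7934 RPKM in WT. Mast cell and basophil genes (5 of 5 tested higher) summed to 300 and 290 RPKM in KO and 31.2 and 28.1 RPKM in WT, erythroid genes (5 of 5 tested higher) to 422 and 515 RPKM in KO and 84.9 and 76.5 RPKM in WT, and T and NK genes (2 of 2 tested higher) to 433 and 363 RPKM in KO and 17.6 and 17.2 RPKM in WT, nearly all of it Nkg7, with Cd3d, Cd3e and Cd3g each below 1 RPKM in every library. Stroma and endothelium genes (3 of 3 tested higher) summed to 73.3 and 80.3 RPKM in KO and 12.1 and 12.4 RPKM in WT. Most of this sum was Pecam1 and Pdgfrb, with Sparc and Cxcl12 each below 1 RPKM in every library. The 4 megakaryocyte genes in the table (1 of 1 tested higher) summed to 20.8 and 22.2 RPKM in KO and 1.15 and 1.64 RPKM in WT, nearly all of it Itga2b in KO. The 2 B cell genes in the table (1 higher, 1 lower) summed to 28.3 and 26.4 RPKM in KO and 43.0 and 40.5 RPKM in WT. Of 9 erythroid genes 5 were tested, and the untested Klf1 was lower in KO, below 1 RPKM in every library. In footprints the erythroid sums overlapped, at 1086 and 39.7 RPKM in KO and 40.5 and 154 RPKM in WT. Footprint sums of the other marker groups did not overlap, apart from the stem and progenitor group. The markers were tested where RNA was at least 1 RPKM in at least 2 libraries. Cpa3, Prss34, Alas2, Lck, Col1a1 and Itga2b reached that level in KO only. Such genes could enter the test only with higher RNA in KO, so the counts of higher genes are partly set by the filter. The part of these cell types in the results below was not tested. In such bulk samples a change in the share of a cell type and a change in RNA per cell cannot be told apart.

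RNA for many import proteins differed between the groups, most often upwards in KO. No footprint or translational efficiency difference passed the test, but these measures were less precise. Over the tested genes, the 2 KO libraries correlated at 0.782 in footprints, 0.689 in translational efficiency and 0.996 in RNA (Pearson, log2 scale). For the 2 WT libraries the values were 0.94, 0.898 and 0.997. The lack of such calls therefore does not show that footprints or efficiencies were equal. Of the 38 genes, 23 passed the filter on low footprints (a CPM, reads scaled to library depth, of at least 20 in at least 2 libraries), 15 did not, and 3 of these 15 had no read in any library. None of the 23 was called in footprints (limma on log2 of RPKM + 1, Benjamini-Hochberg adjusted over all 6390 tested genes, threshold 0.05), where 1.06% of all tested genes were called, 0.595% higher and 0.469% lower. The limma-voom test on recovered reads also called 0 of the 23. At an unadjusted p under 0.05, 3 of the 23 stood out, Tomm7 and Tomm22 lower and Mtx2 higher, against 18.2% of all tested genes (5.84% higher, 12.4% lower). Tomm22 passed the filter through its WT libraries only, so its lower KO footprints are partly tied to that choice. Without the filter, 0 of 35 genes with any read were called, against 0.0%, and 4 stood out at an unadjusted p under 0.05 (Tomm5 in addition, lower), against 14.9%. In RNA, 12 of the 23 were called, 9 higher and 3 lower in KO, where the background was 60.8% of tested genes called, 33.1% higher and 27.7% lower. The share of import genes called was thus no higher than the background. For the translational efficiency (TE, the deposited ratio of footprint to RNA value) 0 of 23 were called, against a background of 0.0%. The unadjusted count was 2, Tomm7 and Tomm22, both lower, with 13.0% of all genes past that limit, 9.98% lower.

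The RNA of genes with few footprints was also tested with a filter on RNA alone (at least 1 RPKM in at least 2 libraries), which 36 of the 38 genes passed. There 16 of 36 were called, 14 higher and 2 lower in KO, against 53.3% of 12194 genes, 32.2% higher and 21.1% lower. The median log2 difference was 0.24 over the 36 import genes and 0.10 over all genes tested. RNA p-values below come from the fit on 6390 genes for the 23, and from the RNA filter for the others and where stated. For the 23, the median was -0.32 for footprints, 0.17 for RNA and -0.46 for TE, against -0.13, 0.04 and -0.15 over all tested genes. In footprints 18 of the 23 lay below 0, and 42.6% of all tested genes lay above 0. The KO and WT values did not overlap in footprints for 6 of the 23 on the lower side (26.1%, against 32.1% of all tested genes) and for 2 on the higher side (8.7%, against 20.5%). In RNA they did not overlap for 13 on the higher side (56.5%, against 44.4%) and 4 on the lower side (17.4%, against 37.6%).

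**Figure D1:**
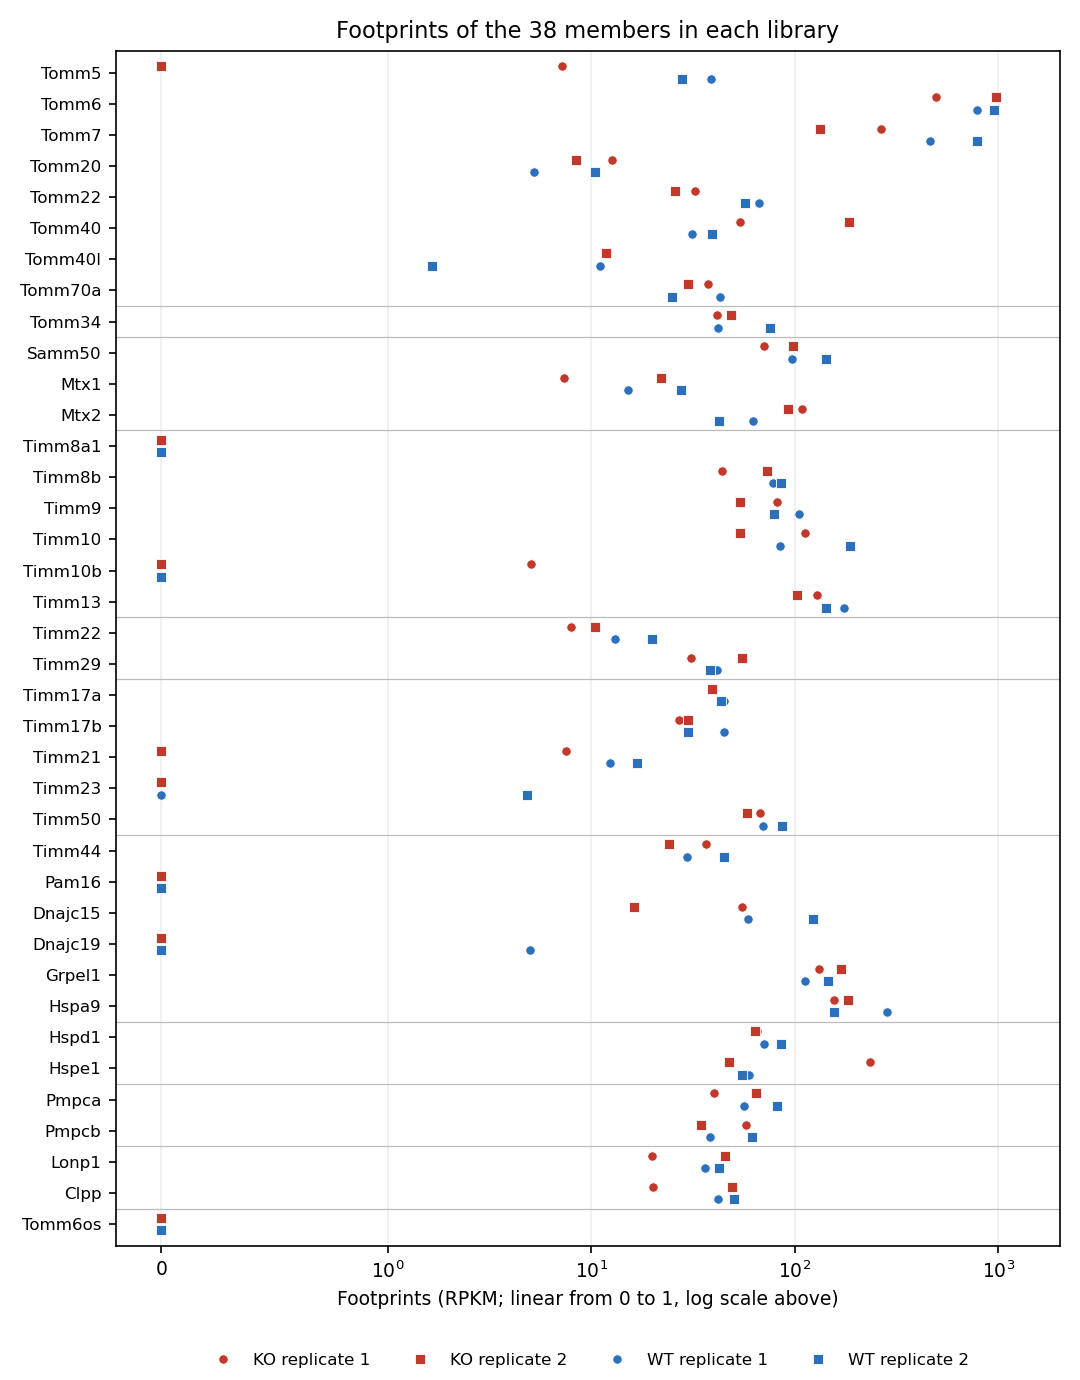
Footprint level (RPKM, linear from 0 to 1 and logarithmic above) of each of the 38 import genes in each library, KO above WT in each row; rows are grouped by role and grey lines part the roles. Tomm7 and Tomm22 lie lower in both KO libraries, Tomm40 and Mtx2 higher, Tomm6 is the highest gene, and Timm8a1, Pam16 and Tomm6os are at 0 throughout.

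The TOM complex is the entry gate of the outer membrane. Tom40 forms its channel, Tom20, Tom22 and Tom70 are receptors, and Tom5, Tom6 and Tom7 are small subunits that shape the assembled complex. In RNA, 4 of the 7 genes of this group tested with the RNA filter rose in KO (Tomm5, Tomm7, Tomm22 and Tomm40) and 0 fell, where 32.2% of all genes tested rose and 21.1% fell. The count was 2 after median centring, which ended the calls of Tomm22 and Tomm40 (adjusted p = 0.0956 and 0.083), and 2 without either WT replicate. With a library left out, its group has 1 sample, the spread comes from the other group's pair, and the lone sample is assumed to vary like that pair. Tomm7 (chromosome 5) had the largest TE difference in size among the 23. Its RNA was 70.2 and 77.8 RPKM in KO, against 44.7 and 46.5 RPKM in WT, a log2 difference of 0.68 ± 0.07 (SE, n = 2 each, limma adjusted p = 0.000217). Its footprints were 266 and 133 RPKM in KO, against 462 and 785 RPKM in WT, from 16 and 6 reads against 67 and 85. Both KO libraries lay above WT in RNA and below WT in footprints. The footprint difference was -1.68 ± 0.48 on the log2 scale and did not pass (adjusted p = 0.19), and the TE difference was -2.36 ± 0.53 (adjusted p = 0.29). The TE difference was -2.93 without KO replicate 1, the KO library nearer to WT, and -1.79 without KO replicate 2 (adjusted p = 0.048 and 0.0622, with the spread of the WT pair alone).

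Tomm22 RNA was 78.0 and 78.6 RPKM in KO and 65.2 and 65.6 RPKM in WT, a rise of 0.26 ± 0.06 on the log2 scale (adjusted p = 0.00874). That call was lost without either WT replicate, with adjusted p-values of 0.0973 and 0.0925. Footprints of Tomm22 were 32.2 and 25.7 RPKM in KO, against 66.8 and 57.2 RPKM in WT, a difference of -1.08 ± 0.31 (adjusted p = 0.193) from 8 KO and 41 WT reads. Neither measure overlapped between the groups. Tomm22 reached the CPM set by the filter in the WT libraries only, so its lower footprints and TE in KO are partly tied to that choice. Tomm5 had too few footprints for the filter, with 1 and 0 reads in KO and 13 and 7 reads in WT. Scaled to depth, the pooled KO over WT ratio of these reads was 0.12, with an exact 95% interval of 0.0029 to 0.751 that covers counting error only. Tomm5 RNA went the other way, with 85.2 and 71.5 RPKM in KO and 49.8 and 51.5 RPKM in WT (log2 difference 0.61 ± 0.10, adjusted p = 0.00493 with the RNA filter). The 3 subunits Tomm5, Tomm7 and Tomm22 thus had higher RNA and lower footprint values in both KO libraries, with only the RNA differences past the test. All 3 are counted over less than 450 bases. Over all 365 genes of up to 450 bases that passed the filter on footprints, medians went the same way. They were 0.33 in RNA, -0.68 in footprints and -1.11 in TE.

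The channel gene Tomm40 (chromosome 7) moved differently. Its RNA was 59.8 and 51.5 RPKM in KO and 42.8 and 44.2 RPKM in WT (log2 difference 0.34 ± 0.08, adjusted p = 0.00965), a call lost without WT replicate 1 (adjusted p = 0.0674). Its footprints were 53.8 and 185 RPKM in KO, against 31.4 and 39.3 RPKM in WT. The KO libraries differed from each other by more than the lower of them differed from WT, and the log2 difference of 1.48 ± 0.64 did not pass (adjusted p = 0.325). It was 2.36 without KO replicate 1 and 0.60 without KO replicate 2 (adjusted p = 0.0309 and 0.235, with the spread of the WT pair alone). Tomm6 had the highest footprint level of all 38 genes, at 495 and 969 RPKM in KO and 785 and 947 RPKM in WT, while its RNA was listed at 0.624 and 0.571 RPKM in KO and 0.37 and 0.487 RPKM in WT. The annotated span of Tomm6 overlaps 4 other genes, Tomm6os among them, and the sources used here do not say whether strand was used in counting the RNA. Its groups overlapped in footprints (log2 difference -0.32 ± 0.41, adjusted p = 0.723). The receptor Tomm70a had 37.5 and 29.8 RPKM of footprints in KO and 42.9 and 24.9 RPKM in WT, a log2 difference of 0.03 ± 0.40. Tomm20 and the Tomm40 paralogue Tomm40l had 8 and 17 reads over all libraries, under the filter, and without it their footprint differences of 0.42 ± 0.58 and 1.18 ± 0.88 did not pass (adjusted p = 0.755 and 0.599).

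Tom34 is a cytosolic co-chaperone that binds Hsp70 and Hsp90. Its gene had 41.7 and 48.4 RPKM of footprints in KO and 42.1 and 75.2 RPKM in WT, and 42.7 and 38.1 RPKM of RNA in KO against 42.6 and 44.5 RPKM in WT. Groups overlapped in both measures, and neither difference passed (adjusted p = 0.709 and 0.258).

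The SAM complex inserts barrel proteins such as Tom40 into the outer membrane, with Sam50 as its core and the metaxins on its cytosolic side. Mtx2 was the only one of its 3 genes called in RNA with either filter. Its RNA was 27.5 and 25.5 RPKM in KO and 21.7 and 22.1 RPKM in WT (log2 difference 0.26 ± 0.07, adjusted p = 0.0156), a call lost without either WT replicate (adjusted p = 0.109 and 0.0844) and, with the RNA filter, after median centring (adjusted p = 0.141) and without KO replicate 1 (adjusted p = 0.055). Its footprints were 108 and 92.5 RPKM in KO, against 62.1 and 42.5 RPKM in WT, so that both KO libraries lay above both WT libraries. The footprint difference of 0.95 ± 0.33 did not pass (adjusted p = 0.241), and the TE difference was 0.68 ± 0.35 (adjusted p = 0.473). Mtx2 and Tomm40 were the only 2 of the 23 genes whose KO footprints both exceeded WT. Samm50 had 70.3 and 98.5 RPKM of footprints in KO and 97.1 and 143 RPKM in WT, and RNA of 34.7 and 29.2 RPKM in KO and 34.6 and 35.1 RPKM in WT. Its groups overlapped in both, with log2 differences of -0.50 ± 0.35 and -0.13 ± 0.09. Mtx1 was not called in either measure (footprints -0.64 ± 0.63, RNA 0.17 ± 0.09).

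The small Tim proteins form ring-shaped chaperones, Tim9 with Tim10 and Tim8 with Tim13, that carry membrane proteins through the intermembrane space. Of 6 genes tested with the RNA filter, 5 rose in KO (Timm8b, Timm9, Timm10, Timm10b and Timm13) and 0 fell, with a median log2 difference of 0.46, against 32.2% of all genes higher and a median of 0.10. Timm8b, Timm9, Timm10 and Timm13 are counted over less than 450 bases. The median RNA difference was 0.33 over all 365 genes of up to 450 bases that passed the filter on footprints. The count was 4 after median centring, which ended the call of Timm13 (adjusted p = 0.0656), and 3 without either WT replicate. Timm8a1 was the exception, at 0.28 ± 0.09 (adjusted p = 0.0542). Timm10 RNA was 51.4 and 47.8 RPKM in KO, against 32.5 and 31.0 RPKM in WT, a log2 difference of 0.63 ± 0.07 (adjusted p = 0.000256). Timm9 RNA was 8.86 and 10.3 RPKM in KO, against 6.07 and 6.03 RPKM in WT, a log2 difference of 0.58 ± 0.09 (adjusted p = 0.0014). Both genes of the Tim9-Tim10 ring were thus higher in RNA in each KO library. Footprints of Timm10 were 112 and 54.0 RPKM in KO and 84.4 and 186 RPKM in WT, and those of Timm9 were 81.4 and 54.0 RPKM in KO and 105 and 79.0 RPKM in WT. In footprints the groups overlapped for both genes (log2 differences -0.68 ± 0.56 and -0.45 ± 0.35, adjusted p = 0.569 and 0.544), and KO replicate 2 held 4 reads of each.

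Timm13 had the most footprint reads of the small Tim genes. Its footprints were 128 and 102 RPKM in KO and 174 and 142 RPKM in WT (log2 difference -0.45 ± 0.29, adjusted p = 0.475), and its RNA was 121 and 113 RPKM in KO and 96.3 and 92.3 RPKM in WT (0.31 ± 0.07, adjusted p = 0.00658). KO was below WT in footprints and above it in RNA, without overlap. The RNA call was lost without WT replicate 2 (adjusted p = 0.0975). Timm8b had RNA of 123 and 127 RPKM in KO and 101 and 95.9 RPKM in WT (0.34 ± 0.06, adjusted p = 0.00845), lost without either WT replicate (adjusted p = 0.0617 and 0.105). Timm10b RNA was 6.26 and 6.18 RPKM in KO and 3.99 and 3.60 RPKM in WT (0.59 ± 0.09, adjusted p = 0.00477), with 1 footprint read in all.

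The promoter of Timm10 is shown because this gene had the second-largest RNA rise among the 23 and carries 3 matches of a motif that recurs in the set. The window is from RefSeq (GRCm38.p6), chr2:84826771-84827070, plus strand, 5′ to 3′, with the matches in capitals.
Timm10: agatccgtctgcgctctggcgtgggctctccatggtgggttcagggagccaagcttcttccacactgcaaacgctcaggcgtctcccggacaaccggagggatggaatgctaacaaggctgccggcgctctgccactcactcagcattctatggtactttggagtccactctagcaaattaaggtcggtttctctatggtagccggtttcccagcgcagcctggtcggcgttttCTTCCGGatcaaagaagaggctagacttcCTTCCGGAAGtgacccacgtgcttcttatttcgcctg
The capitals mark CCGGAAG or its reverse complement CTTCCGG, the core bound by ETS factors such as GABP, and both orientations overlap in the second capital run. A promoter window of 300 bases was at hand for 34 of the 38 genes. The ETS core was present in 15 of these 34 (44.1%), against 8.86% of 32851 windows in the table. A single window was searched per import gene, whereas the 32851 windows can include several per gene. No background of genes matched to the import genes was taken. The YY1 core AANATGGCG was in 4 of 34 (11.8%, against 2.38%), and the inverted heat shock half-site pair GAANNTTC in 2 (5.88%, against 7.86%). Another motif was searched at first and is not given here. Among the other genes called higher with the RNA filter, the windows of Tomm22, Mtx2, Timm8b, Timm10b and Clpp held the ETS core. Those of Tomm5, Tomm40, Timm9, Timm13, Timm17b, Dnajc19 and Pam16, the gene with the largest rise, did not, and Tomm7 had no window. Whether the core goes with the RNA differences was not tested. Both strands were searched, and a match is a description of the letters only.

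The TIM22 complex inserts carrier proteins into the inner membrane, with Tim22 as its channel and Tim29, known from human cells, as a subunit. Timm29 (chromosome 9) was the gene with the largest RNA fall of the set. Its RNA was 25.1 and 25.0 RPKM in KO, against 35.5 and 34.9 RPKM in WT, a log2 difference of -0.48 ± 0.06 (adjusted p = 0.000623). Its footprints were 31.0 and 54.8 RPKM in KO and 41.4 and 38.2 RPKM in WT, with the WT values between the KO ones (log2 difference 0.05 ± 0.39, adjusted p = 0.956). Timm29 overlaps the neighbouring Yipf2 in the annotation and has a named pseudogene, so its counts carry that uncertainty. Its promoter is shown as the counterpart of Timm10, since it holds the same core once while its RNA went the opposite way (chr9:21592472-21592771, plus strand, GRCm38.p6, ETS core in capitals).
Timm29: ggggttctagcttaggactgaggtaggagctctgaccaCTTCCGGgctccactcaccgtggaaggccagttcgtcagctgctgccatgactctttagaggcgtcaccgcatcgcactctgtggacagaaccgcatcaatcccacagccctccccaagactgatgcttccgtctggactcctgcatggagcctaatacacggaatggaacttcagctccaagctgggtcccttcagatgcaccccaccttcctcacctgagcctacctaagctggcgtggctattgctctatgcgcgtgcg
Timm22 had RNA of 21.4 and 17.3 RPKM in KO and 16.6 and 17.1 RPKM in WT and was not called (0.18 ± 0.11, adjusted p = 0.222). Its 4 KO and 17 WT footprint reads gave a pooled KO over WT ratio of 0.566 with an exact 95% interval of 0.138 to 1.73.

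The TIM23 complex moves presequence proteins across the inner membrane, with Tim23 and Tim17 as its core and Tim50 as the presequence receptor. Only Timm17b of its 5 genes was called with the RNA filter, where 53.3% of all genes were called. Without KO replicate 2 there were 3, with Timm17a and Timm50 (adjusted p = 0.0327 and 0.0151). Timm17b had RNA of 48.1 and 40.1 RPKM in KO and 29.7 and 31.9 RPKM in WT (0.50 ± 0.10, adjusted p = 0.012). That call was lost without either WT replicate (adjusted p = 0.0803 and 0.0551). Its paralogue Timm17a had RNA of 18 and 15.8 RPKM in KO and 14.2 and 14.3 RPKM in WT (0.23 ± 0.08, adjusted p = 0.0681). Timm50 footprints were 67.4 and 58.5 RPKM in KO and 69.9 and 86.3 RPKM in WT (-0.30 ± 0.29, adjusted p = 0.628). Timm50 RNA was 87.9 and 75.2 RPKM in KO and 68.6 and 66.7 RPKM in WT. It passed among the genes chosen on footprints (0.26 ± 0.09, adjusted p = 0.0312) and missed the threshold with the RNA filter (adjusted p = 0.0567) and without WT replicate 1, WT replicate 2 or KO replicate 1 (adjusted p = 0.112, 0.168 and 0.0554). The channel gene Timm23 had RNA of 92.8 and 77.9 RPKM in KO and 79.4 and 82.7 RPKM in WT, among the higher levels of the set, with overlapping groups, yet 0 footprint reads in KO and 0 and 2 in WT. Timm21 held 9 reads in all and had an RNA difference of 0.02 ± 0.10.

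The import motor pulls proteins into the matrix. Mortalin (Hspa9) is its Hsp70, Grpel1 its nucleotide exchange factor, Tim44 its anchor, and Pam16 with the J proteins Dnajc15 and Dnajc19 controls its cycle. With the RNA filter, 2 of 6 genes rose in KO and 0 fell, against 32.2% and 21.1% of all genes. Pam16 had the largest RNA rise of the whole set, at 21.2 and 22.4 RPKM in KO and 10.8 and 10.2 RPKM in WT (0.99 ± 0.07, adjusted p = 0.000488). Each KO library held about the same Pam16 level and each WT library about the same lower one, but no library held a footprint read for it, which allows a CPM of up to 8.24 and 10.9 in KO and 3.42 and 4.57 in WT (3 counts each). Dnajc19 RNA was 34.6 and 31.8 RPKM in KO and 21.7 and 20.9 RPKM in WT (0.62 ± 0.07, adjusted p = 0.00191), with footprint reads limited to 3 in WT replicate 1. In the annotation Pam16 overlaps Glis2, and Dnajc19 overlaps Fxr1 and has a named pseudogene.

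Hspa9 carried more footprint reads than any other gene of the set, between 14.3 and 27.5% of the reads of the whole set in a library. Its footprints were 156 and 183 RPKM in KO and 285 and 156 RPKM in WT, from 116 and 102 reads against 510 and 209. The groups overlapped, WT replicate 1 being the highest of the 4, and the log2 difference was -0.32 ± 0.38 (adjusted p = 0.699). Its RNA was 46.2 and 35.9 RPKM in KO and 46.6 and 51.1 RPKM in WT (-0.26 ± 0.12, adjusted p = 0.0962), and this was -0.43 without KO replicate 1 and -0.08 without KO replicate 2 (adjusted p = 0.00625 and 0.404, with the spread of the WT pair alone). Grpel1, the partner that releases nucleotide from mortalin, had 131 and 168 RPKM of footprints in KO and 112 and 145 RPKM in WT, and 35.6 and 31.5 RPKM of RNA in KO and 32.1 and 32.0 RPKM in WT. Both measures overlapped. Dnajc15 footprints were 55.3 and 16.3 RPKM in KO and 58.6 and 123 RPKM in WT. KO was lower without overlap, but KO replicate 1 lay close to WT replicate 1 and the difference of -1.46 ± 0.71 did not pass (adjusted p = 0.365). It was -2.31 without KO replicate 1 and -0.61 without KO replicate 2. Timm44 was not called in footprints (-0.28 ± 0.40) or RNA (0.17 ± 0.08).

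In the matrix, Hsp60 (Hspd1) and its lid Hsp10 (Hspe1) form the folding chamber. Their genes lie head to head on chromosome 1, and the annotated spans overlap by 96 bases. Hspd1 RNA was 101 and 88.8 RPKM in KO and 107 and 117 RPKM in WT, a fall just past the threshold (-0.23 ± 0.09, adjusted p = 0.0484) that was lost with a pseudocount of 4 (adjusted p = 0.0511), without a filter (0.0508), after median centring (0.0747), with the RNA filter (0.08) and without WT replicate 1, WT replicate 2 or KO replicate 2 (adjusted p = 0.0912, 0.321 and 0.142). Hspe1 RNA was 47.6 and 39.9 RPKM in KO and 33.1 and 36.9 RPKM in WT, with a difference of 0.31 ± 0.11 that did not pass (adjusted p = 0.0572). The 2 genes thus lay on opposite sides of 0 in RNA. Hspd1 footprints were 65.5 and 63.7 RPKM in KO and 70.9 and 85.1 RPKM in WT (-0.26 ± 0.28, adjusted p = 0.665). Hspe1 footprints were 233 and 47.7 RPKM in KO and 59.5 and 54.8 RPKM in WT, from 26 and 4 reads against 16 and 11. The high value was in KO replicate 1 alone. Both genes have several named pseudogenes that could share reads with them. The 2 promoter windows share 4 bases. That of Hspe1 is printed because it holds both the heat shock half-site pair and the overlapping ETS cores, in 1 capital run (chr1:55087898-55088197, plus strand, GRCm38.p6), and that of Hspd1 held none of the 3 motifs given here.
Hspe1: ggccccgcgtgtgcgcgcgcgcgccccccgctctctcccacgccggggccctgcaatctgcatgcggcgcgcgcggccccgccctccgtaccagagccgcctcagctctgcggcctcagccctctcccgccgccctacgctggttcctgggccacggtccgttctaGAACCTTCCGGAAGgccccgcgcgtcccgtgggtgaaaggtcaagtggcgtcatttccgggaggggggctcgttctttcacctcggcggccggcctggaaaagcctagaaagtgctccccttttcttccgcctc

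The processing peptidase cuts off presequences, with Pmpca as the substrate-binding subunit and Pmpcb as the catalytic one. Pmpca RNA was 31.7 and 28.6 RPKM in KO and 35.2 and 35.6 RPKM in WT (-0.23 ± 0.07, adjusted p = 0.0315). The call was lost after median centring (adjusted p = 0.0528) and when WT replicate 1, WT replicate 2 or KO replicate 2 was left out (adjusted p = 0.132, 0.167 and 0.0718). Footprints of Pmpca were 40.3 and 64.7 RPKM in KO and 56.4 and 82.0 RPKM in WT, with overlap (-0.41 ± 0.39, adjusted p = 0.623). For Pmpcb the log2 difference was 0.02 ± 0.09 in RNA and -0.13 ± 0.43 in footprints.

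Of the matrix proteases, Clpp rose in RNA and Lonp1 was not called. Clpp, the proteolytic chamber of ClpXP, had RNA of 97.3 and 86.5 RPKM in KO and 71.9 and 64.0 RPKM in WT (0.43 ± 0.09, adjusted p = 0.00429). The call was lost without WT replicate 2 (adjusted p = 0.0532) and, with the RNA filter, without KO replicate 1 (adjusted p = 0.061). Its footprints were 20.2 and 49.2 RPKM in KO and 41.9 and 50.4 RPKM in WT (-0.53 ± 0.50, adjusted p = 0.622). Lonp1, the Lon protease, had footprints of 20 and 45.6 RPKM in KO and 36.4 and 42.4 RPKM in WT, and RNA of 8.94 and 10.8 RPKM in KO and 10.7 and 7.28 RPKM in WT, overlapping in both.

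**Figure D2:**
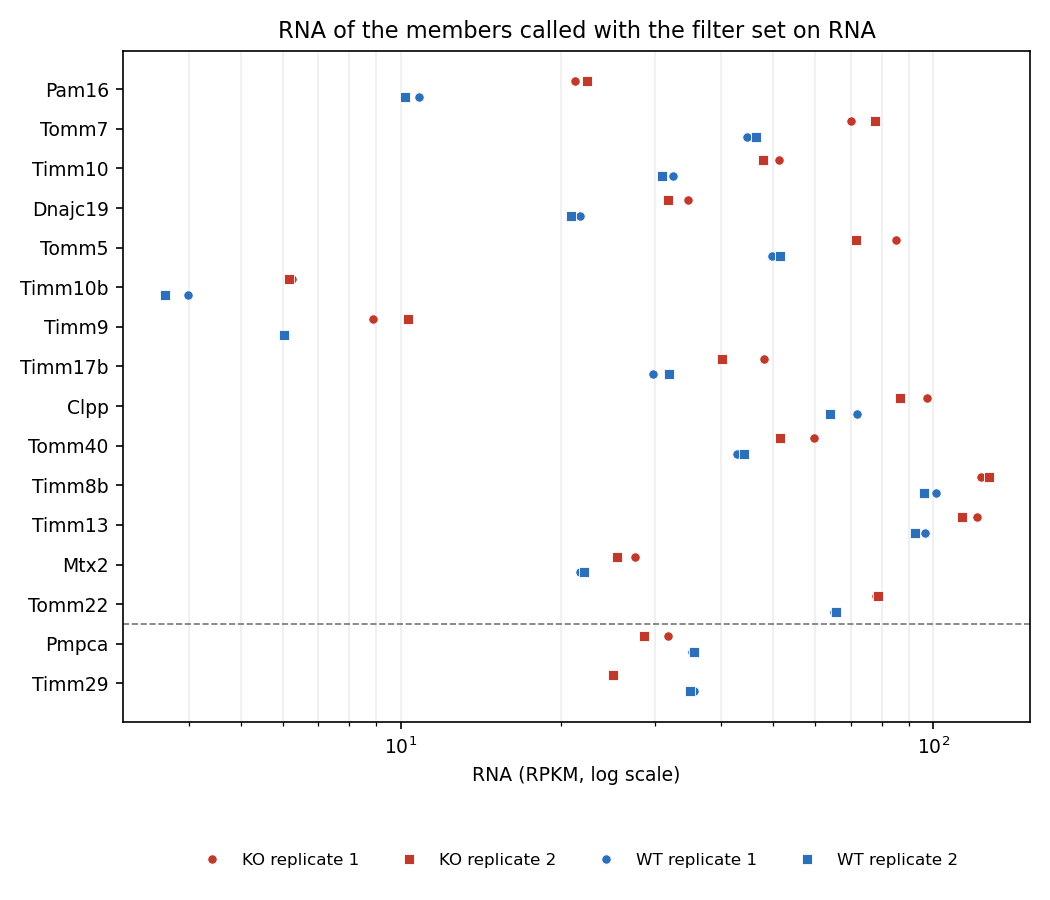
RNA level (RPKM, log scale) in each library of the 16 import genes called with the filter on RNA, KO above WT in each row, ordered by log2 difference. The 14 genes above the dashed line were higher in KO and the 2 below it, Pmpca and Timm29, lower. The 16 genes were chosen by this RNA test, so the separation of the groups in the figure follows from the choice.

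Among the 23 genes tested in both measures, RNA and footprints did not move together in a fixed way. Of the 9 genes with higher RNA in KO, Tomm40 and Mtx2 had positive footprint differences and the others negative ones. Over all tested genes, 42.6% lay above 0 in footprints. Tomm7, Tomm22, Timm9, Timm10 and Timm13 are counted over less than 450 bases. For all tested genes of up to 450 bases the median was -0.68 in footprints and 0.33 in RNA. TE contains both measures and therefore carries the contrast between them. Without overlap, 8 of the 23 genes had lower TE in KO (34.8%), against 32.3% of all tested genes, and 3 had higher TE (13.0%), against 15.6%. These shares lay near the background.

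**Figure D3:**
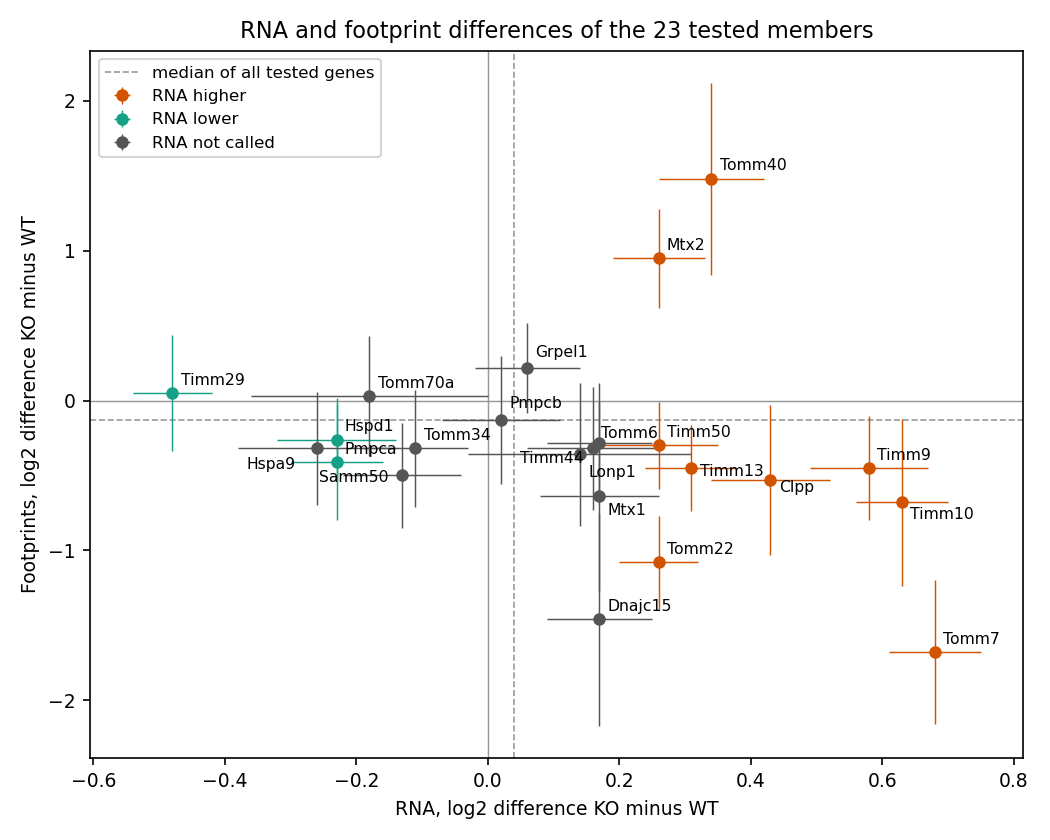
Log2 difference KO minus WT in RNA (x axis) against that in footprints (y axis) for the 23 tested import genes, with SE bars, coloured by the RNA call; dashed lines mark the medians of all tested genes, 0.04 and -0.13. Tomm7 lies at 0.68 and -1.68, Tomm40 at 0.34 and 1.48, and the footprint error exceeds the RNA error for every gene.

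Short genes of the set were mostly the ones with higher RNA and lower footprint values. Over the 23 genes, Spearman's rho between counted length (the length that the RPKM steps imply) and the log2 difference was -0.64 in RNA, 0.33 in footprints and 0.50 in TE, against -0.02, 0.22 and 0.24 over all 6390 tested genes. These are descriptions across genes that share the same 4 libraries. In the shortest class, up to 450 bases, the median footprint difference was -0.68 for the 7 import genes and -0.68 for all 365 genes of that class, and the median RNA difference was 0.31 and 0.33. Short import genes thus lay at the level of other short genes. The KO libraries were also the shallower ones, and the part of depth in this relation was not tested.

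**Figure D4:**
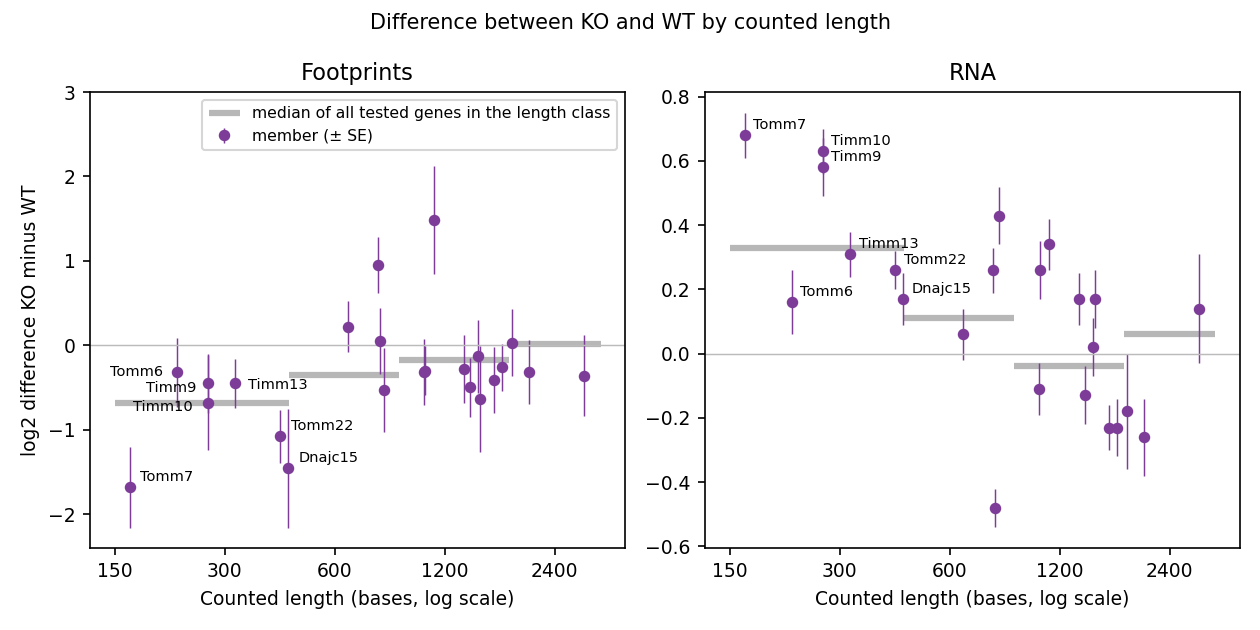
Log2 difference KO minus WT against counted length (bases, log scale) for the 23 import genes (points with SE), in footprints on the left and RNA on the right; grey bars give the median of all tested genes in each of 4 length classes. Up to 450 bases that median is -0.68 in footprints and 0.33 in RNA, and the import genes of that class have medians of -0.68 and 0.31.

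Partner proteins that sit in one complex were compared within each library on the RPKM scale, which is per length (these pairs were chosen after values were seen, and the sources used here do not name the length behind the RNA values). For the Tim9-Tim10 ring, the Timm10 over Timm9 ratio in RNA was 5.8 and 4.64 in KO and 5.36 and 5.14 in WT, whereas in footprints it was 1.38 and 1.0 in KO and 0.8 and 2.36 in WT. The processing peptidase showed the same kind of gap. Its Pmpca over Pmpcb ratio in RNA was 5.25 and 4.96 in KO and 6.39 and 5.84 in WT, and in footprints 0.7 and 1.87 in KO and 1.47 and 1.33 in WT. In both pairs every library had a footprint ratio nearer to 1 than its RNA ratio. In KO replicates 1 and 2 the first pair rests on 11 and 4 reads of Timm10 and 8 and 4 reads of Timm9. Timm13 over Timm8b went the other way, with RNA ratios of 0.987 and 0.888 in KO and 0.951 and 0.962 in WT and footprint ratios of 2.91 and 1.4 in KO and 2.24 and 1.66 in WT. Timm8b had 4 and 5 reads in KO. The Hspd1 over Hspe1 ratio in RNA was lower in KO, at 2.13 and 2.22 against 3.23 and 3.17 in WT, and in footprints it was 0.281 and 1.34 in KO and 1.19 and 1.55 in WT. Mtx2 over Mtx1 was 2.06 and 2.19 in KO and 1.98 and 2.03 in WT in RNA, but 14.7 and 4.22 in KO and 4.08 and 1.55 in WT in footprints, and Mtx1 in KO replicate 1 had 4 reads. Hspa9 over Grpel1 was 1.3 and 1.14 in KO and 1.45 and 1.6 in WT in RNA, and 1.2 and 1.09 in KO and 2.55 and 1.08 in WT in footprints.

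**Figure D5:**
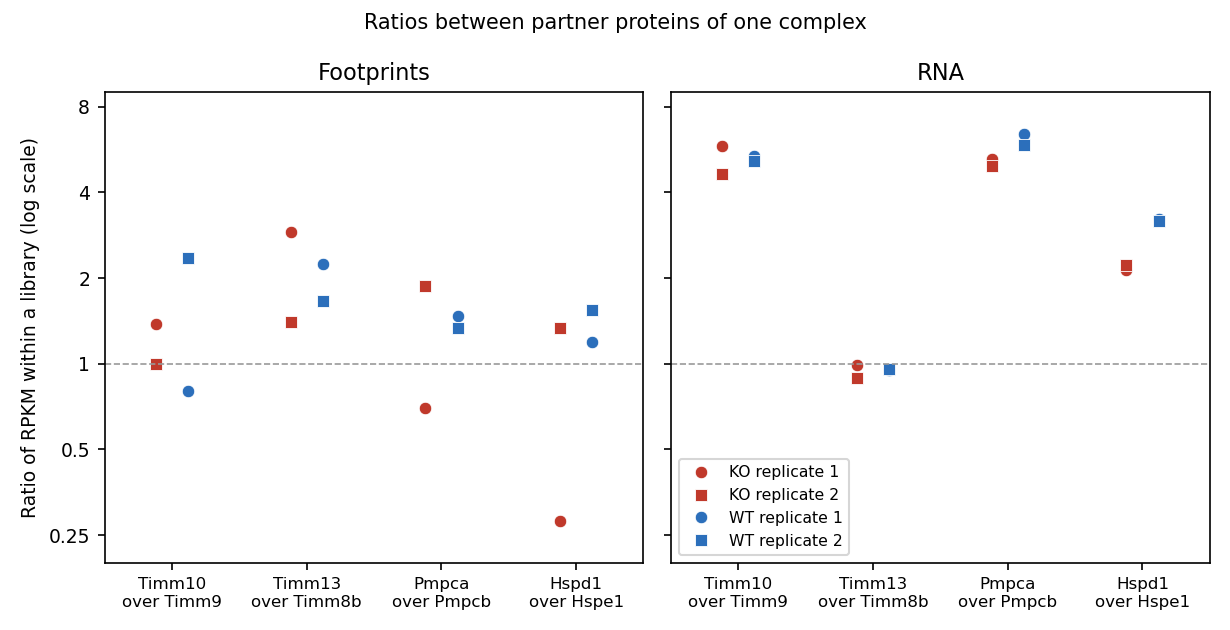
Ratio of RPKM between partner proteins within each library (log scale, dashed line at 1), footprints on the left and RNA on the right, with KO left of WT for each pair. Timm10 over Timm9 and Pmpca over Pmpcb lie between 4.64 and 6.39 in RNA and between 0.7 and 2.36 in footprints; the lowest point, 0.281, is Hspd1 over Hspe1 in KO replicate 1.

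Other genes of mitochondrial import and proteostasis, from a list of 41 written with earlier results of these data known, were read from the same fits. Of 24 tested, 0 passed in footprints and 0 in TE (limma; 1 and 2 at an unadjusted p under 0.05). In RNA, 7 of the 24 were higher and 5 lower in KO, against 33.1% and 27.7% of all tested genes, and with the RNA filter 12 of 38 were higher and 7 lower, against 32.2% and 21.1%. Micos10, a subunit of the cristae-organising MICOS complex, had RNA of 60.4 and 67.9 RPKM in KO and 34.8 and 35.3 RPKM in WT (0.85 ± 0.08, adjusted p = 8.44e-05). Mtch1, a paralogue of the outer-membrane insertase Mtch2, and Htra2, a protease of the intermembrane space, were higher by 0.54 and 0.52 on the log2 scale. On the lower side were the matrix Hsp90 Trap1, with 37.4 and 37.6 RPKM in KO and 51.3 and 54.2 RPKM in WT (-0.48 ± 0.07, adjusted p = 0.000641), and Clpx, the unfoldase that feeds Clpp, with 15.3 and 15.2 RPKM in KO and 20.6 and 21.3 RPKM in WT (-0.43 ± 0.07, adjusted p = 0.00141). Clpx and Clpp, the 2 parts of one protease, were thus called in opposite directions in RNA. Atf4, a transcription factor of the mitochondrial stress response, rose in RNA by 0.28 (adjusted p = 0.0234). Its footprints were 202 and 1442 RPKM in KO and 110 and 81.5 RPKM in WT. The KO libraries lay far apart, and the footprint difference was not called.

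The authors' deposited table carries its own p-value per gene, which was under 0.05 for 6 of the 38 genes (Tomm5, Tomm7, Tomm22, Timm13, Timm17a and Pam16) and for 20.9% of all 16442 genes. For Pam16 the authors' deposited table gives 0.00158, although no library held a footprint read of that gene, so that its TE values there move only with its RNA.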

How the data were processed

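Ribosome footprints and input RNA were measured in 2 KO-labelled and 2 WT libraries. HISAT2 2.1.0, CASAVA, DESeq2 and featureCounts stand in the submitters' processing notes without their roles, beside hg38, a human build, for these mouse samples. No annotation is named in the sources used here. The authors deposited footprint values that behave as RPKM plus 1 (read from the values), and, per the file headers, translational efficiencies, which are the ratio of the footprint to the RNA value, and a p-value per gene. RNA was computed as the footprint value over the ratio, minus 1. Whole-read counts were recovered from the deposited RPKM steps for 11151 of 11151 genes with reads (100%, tolerance 2e-05 reads). On simulated data 95.8% of genes came back exactly and 4.2% divided by one factor in every library, so that ratios hold; recovered reads made up 94.0 to 97.5% of the assigned reads. A count of 3 in a library is a CPM of 8.24 and 10.9 in KO and 3.42 and 4.57 in WT.

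The authors' RPKM values were tested with limma 3.58.1 in R 4.3.3 (mean-variance trend, all 4 libraries, group as single term, two-sided tests, Benjamini-Hochberg over all tested genes, threshold 0.05) on log2 of the deposited value, that is RPKM + 1, which understates changes of low genes; TE was tested as log2 of the deposited ratio. Genes needed a CPM of 20 in 2 libraries (6390 genes). The fit was also run on simulated footprints, with large changes in genes with many reads and the same spread in both groups. That simulation does not cover small changes, low genes or unequal spread between the groups. Same-numbered KO and WT libraries deviated from their group means with a correlation of 0.023 in footprints, -0.335 in RNA and 0.008 in TE, so the numbers do not pair the libraries. Alternatives were a pseudocount of 4, no filter, a filter on RNA, median centring, limma-voom on the recovered reads, the replicate block, and leaving out each library. Intervals are exact binomial and cover counting error only.

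Members were chosen by symbol, and members and gene lists were chosen with earlier results of these data known. Given in full were members past the threshold in footprints or TE, those past it in RNA with a fold of at least 1.5, those at an unadjusted p under 0.05 in footprints, and the member of each role with the most footprint reads; others were given by counts or by their values. Gene positions, overlaps and promoter windows are from RefSeq GRCm38.p6, matched by symbol for 38 of 38 genes. Python 3.11.15 was used for the tables and matplotlib 3.10.9 for the figures.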

Additional observations from a re-analysis of the deposited data

How the results depend on the processing

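No import gene passed in footprints under any of the 5 settings other than leaving out a library (pseudocount 4, no filter, median centring, limma-voom, replicate block), and none passed in TE under the 4 such settings run there. Over all genes the footprint count was 109 with a pseudocount of 4, 0 without a filter (limma, 1667 at an unadjusted p under 0.05) and 32 with the replicate block, against 68; leaving out a library gave 0 to 1089, with 0 to 1 import gene called (Tomm40, without KO replicate 1). In TE 1 gene passed with a pseudocount of 4, and 0 to 700 passed with a library left out, with 0 to 1 import gene (Tomm7, without KO replicate 1). The median TE difference of the 23 import genes was -0.37 with a pseudocount of 4 and -0.32 after centring, and -0.64 to -0.05 with a library left out, against -0.46. In RNA 6497 genes passed with the RNA filter and 6502 without a filter, against 3882, because more genes were tested. Import genes called in RNA were 5 to 15 with a library left out, against 12, and with the RNA filter 8 to 21, against 16, among 3624 to 5800 genes in all, against 6497. The lowest counts came without WT replicate 2 and the next lowest without WT replicate 1 (9 import genes among 3942 with the RNA filter). Some uncalled genes passed in RNA with a library left out: Tomm34, Samm50, Timm44 and Hspa9 without KO replicate 1, Mtx1 without KO replicate 2, and, with the RNA filter, Samm50, Hspa9 and Hspd1 without KO replicate 1 and Tomm20, Timm8a1, Timm22, Timm17a, Timm50 and Hspe1 without KO replicate 2 (adjusted p = 0.00625 to 0.0463). In the RNA filter fit, median centring ended the calls of Tomm22, Tomm40, Mtx2 and Timm13 and added Hspd1 (adjusted p = 0.0377). The replicate block called 10 import genes in RNA, losing Hspd1 and Pmpca, and with the RNA filter 13 of 16, losing Tomm22, Mtx2 and Pmpca (adjusted p = 0.0508, 0.0615 and 0.0901). Since same-numbered libraries deviated in opposite ways in RNA, a crossed pairing was added after seeing the data and called 4396 genes and 14 import genes, against 3479 and 10 with the replicate block.

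Differences that changed sign had not been called. Centring turned TE to 0.07 for Hspa9 and 0.11 for Hspd1, and RNA (RNA filter) to -0.08 for Timm21 and -0.03 for Timm23. With a library left out, footprint differences ranged from -0.75 to 0.11 for Hspa9, -0.35 to 0.41 for Tomm70a, -0.73 to 0.09 for Tomm34, -0.35 to 0.45 for Timm29, -0.58 to 0.02 for Timm44, -0.49 to 0.23 for Pmpcb, -0.80 to 0.17 for Tomm6, -1.37 to 0.09 for Mtx1, -0.94 to 0.21 for Lonp1 and -1.15 to 0.10 for Clpp. RNA differences ranged from -0.43 to 0.08 for Tomm70a, -0.04 to 0.08 for Pmpcb, -0.11 to 0.39 for Lonp1, -0.02 to 0.15 for Grpel1, -0.10 to 0.14 for Timm21 and -0.06 to 0.19 for Timm23. TE differences ranged from -0.11 to 0.42 for Grpel1, -0.56 to 0.43 for Hspa9, -0.59 to 0.17 for Tomm34, -0.10 to 0.04 for Hspd1, -0.59 to 0.23 for Pmpca, -0.48 to 0.18 for Pmpcb, -0.99 to 0.03 for Tomm6, -0.12 to 0.53 for Tomm70a and -1.63 to 0.01 for Mtx1. The cause was not tested.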
